A study of Mus musculus with 8 samples.

Results

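The collagen chains were taken as all probe sets of the array whose only annotated gene symbol is that of a collagen alpha chain, Col followed by the type number, the letter a and the chain number. A probe set is a group of short oligonucleotides that together report 1 transcript. The rule gave 44 probe sets for 31 genes among the 12488 probe sets of the array, of which 10855 carried 1 gene symbol, for 8252 genes. Grouped by type there were 10 probe sets for 5 fibrillar chains of soft tissue, 5 for 5 chains of basement membrane collagen IV, 4 for 3 chains of collagen VI, 8 for 7 chains of cartilage collagens and 17 for 11 others. Of the 44 collagen genes in RefSeq, 13 had no such probe set, among them Col4a6, Col5a3 and Col8a2, and were not analysed here.

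The septal tips were cut by laser capture from frozen lung sections of C57/Bl6 mice at postnatal day 6, when secondary septa divide the air spaces. In all, 10000 tips from many mice were collected. Whole lung of the same strain and age, also pooled, was the tissue they were set against, and the title of the series gives the question as which genes are enriched in secondary septa. The labels give no treatment and no genotype beyond the strain for either tissue. The experiment was carried out with some litters as experiment 1 and with others as experiment 2, and each RNA was hybridised to 2 arrays at different times, which gave 8 arrays, 4 per group, of 4 RNA samples, 2 per group. Groups follow the sample titles, since the description field of the tip samples names whole lung.

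Collagens are proteins of the extracellular matrix whose alpha chains wind around each other into a triple helix, and most types are assembled from more than 1 kind of chain. Types I, III and V form the banded fibrils of soft tissue, type IV forms the sheet of basement membranes on which epithelium and endothelium rest, and type VI forms beaded filaments between fibrils and cells. Types II, IX, X and XI are known from cartilage, which in the lung lies in the walls of the large airways. In the alveolar wall, collagen fibrils and elastic fibres carry tension, and the basement membranes of epithelium and capillary lie close together.

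Levels below are linear signals, scaled by the authors with MAS5 and brought here to a common trimmed mean. Differences are on the log2 scale, tips minus lung, and are given ± the standard error from limma for 2 RNA samples per group. An offset of 150.09 was added before the log, which understates the differences of dim probe sets. The threshold was an adjusted p under 0.05 over the 7453 probe sets that passed a filter on dim signals. Background on an array was set at the 95th percentile of the signals of 19 bacterial and yeast controls, and it lay between 487 and 1244 on tip arrays and between 314 and 568 on lung arrays. The ratio of the 3′ to the 5′ control probe set of Gapdh, which reads how far labelled RNA is shortened, lay between 4.18 and 12.8 on tip arrays and between 1.95 and 5.49 on lung arrays. These ranges overlap. The Gapdh ratio of 3′ to middle lay between 1.70 and 2.72 on tip arrays and between 0.79 and 1.07 on lung arrays, without overlap. For Actb the ratio of 3′ to 5′ also overlapped, between 23.0 and 139 on tip arrays and between 38.8 and 104 on lung arrays. Its ratio of 3′ to middle lay the other way, between 9.23 and 12.4 on tip arrays and between 16.5 and 24.8 on lung arrays. The part of RNA length in the results was not tested. In such bulk samples, fewer cells of a type and less RNA per cell cannot be told apart.

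Collagen chains did not move as a block between septal tips and whole lung. Col7a1, the chain of the anchoring fibrils of epithelium, was higher in tips, while Col5a2, Col6a3 and 1 of the 2 probe sets of Col13a1 were lower. Of these, only Col7a1 and Col5a2 passed the threshold under every scaling tried. Of the 44 collagen probe sets, 33 passed the filter, for 22 of the 31 genes. Of these 33, 7 were higher in tips (21.2%, against a background of 14.5% of all probe sets tested) and 4 were lower (12.1%, against 13.7%). In either direction this was 33.3%, against 28.3% of all probe sets tested, so the share of collagens past the threshold lay near that of the whole array. Of the 33, 6 passed the filter only through tips and 1 only through lung. The other 26, with both groups above the filter level, held 6 of the 7 higher calls and the 4 lower ones, and all 6126 such probe sets of the array held 12.7% higher and 14.4% lower. The median difference of the 33 was 0.69, against 0.35 over all 7453, and 78.8% of them were above 0, against 62.1%. With both groups above the filter level, the median was 0.58 for the 26 and 0.23 for the 6126. On 12 of the 33 every tip array read above every lung array (24.1% of all probe sets did), on 4 every tip array read below (18.0%), and on 17 the arrays overlapped. The 11 calls fell on probe sets of 10 genes, and 5 of these genes had another tested probe set that was not called or was called the other way. Counted on the brightest probe set of each of the 22 genes, 3 were higher and 4 lower.

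**Figure D1:**
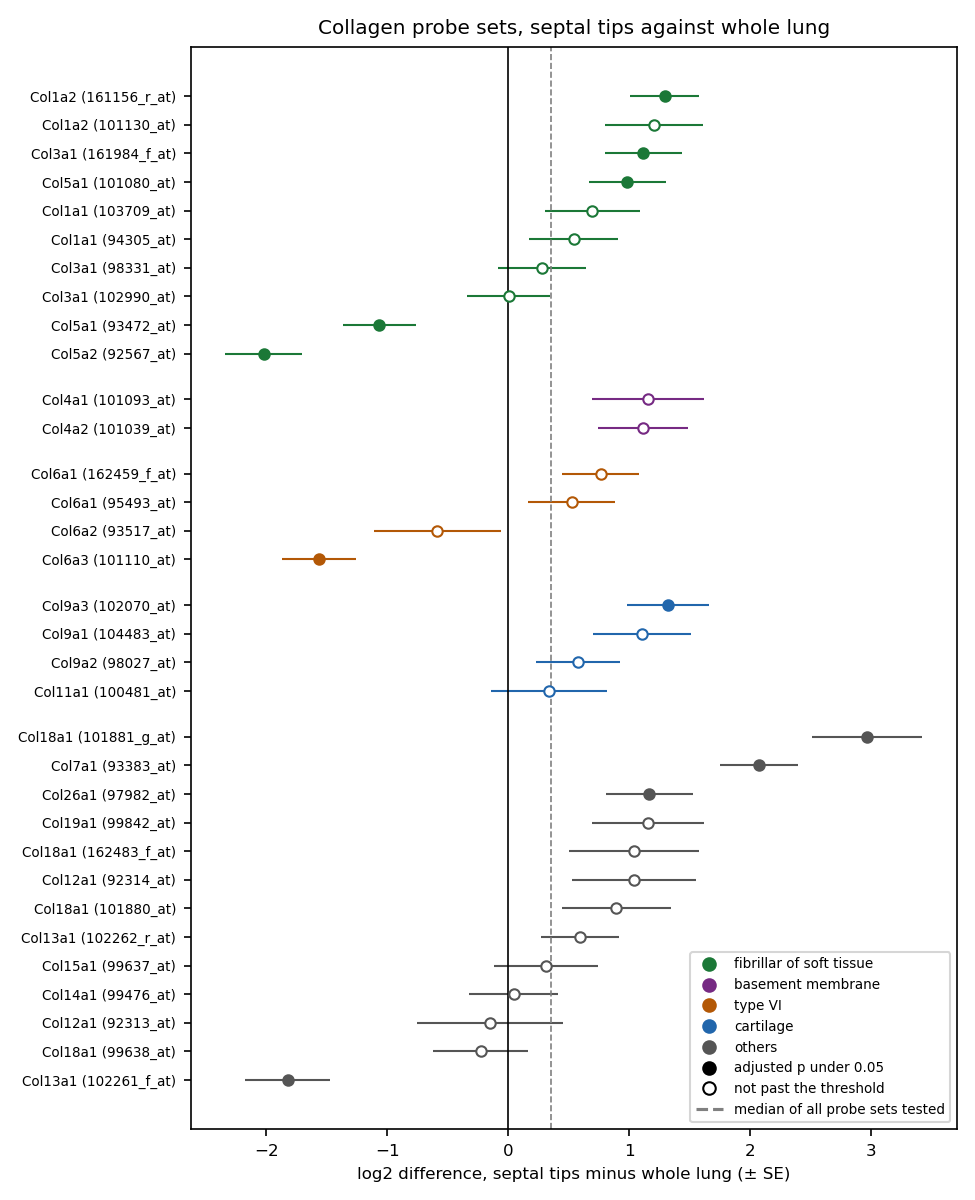
The horizontal axis is the log2 difference of septal tips minus whole lung with its standard error for each of the 33 collagen probe sets tested, grouped by type, with filled points past the threshold and a dashed line at the median of all probe sets, 0.35. Of the 7 filled points on the right, Col7a1 lies at 2.07, and that of Col18a1, drawn at its fitted value, has lung under background and only a lower bound of 3.90-fold. The 4 on the left run down to Col5a2 at -2.02.

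The number of calls depended on the RNA samples in the fit. Without the tip RNA of experiment 1, 9 collagen probe sets were higher and 4 lower, where all probe sets gave 1555 and 1164, and without that of experiment 2 they were 11 and 5, where all gave 1866 and 1458. Without the lung RNA of experiment 1, 2 collagen probe sets were higher and 1 lower, those of Col18a1, Col7a1 and Col5a2, where all probe sets gave only 72 and 277. Without the lung RNA of experiment 2, 2 were higher and 3 lower, the same ones with Col6a3 and Col13a1, where all gave 173 and 383. The fall in calls without a lung RNA was thus array-wide.

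Among the fibrillar chains of soft tissue, all 10 probe sets of the 5 genes were tested, and 3 were higher and 2 lower in tips, with a median difference of 0.62 (all probe sets gave 14.5% higher, 13.7% lower and a median of 0.35). Collagen I is built from the products of Col1a1 and Col1a2. Col1a2 at probe set 161156_r_at read 7749 and 9560 on the tip arrays of experiment 1 and 7318 and 11097 on those of experiment 2, against 3739, 3817, 3088 and 3443 on the lung arrays. Every tip array lay above every lung array, and the difference was 1.29 ± 0.29 (limma adjusted p = 0.0122), lost without either lung RNA. At the other probe set of Col1a2, 101130_at, tips read 76048, 83251, 54867 and 60825, against 19627, 27829, 33441 and 40634 in lung. Here too the groups did not overlap, and the difference of 1.20 ± 0.40 had an adjusted p of 0.0518, or 0.0342 with the experiment number as a block. The experiments gave 1.76 and 0.65 for it.

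Col1a1, the partner chain, did not pass at either probe set. At 103709_at tips read 9861 and 9638 in experiment 1 and 19904 and 23357 in experiment 2, against 7833, 11066, 9705 and 7541 in lung. The tips of experiment 2 were above all lung arrays and those of experiment 1 were within the range of lung, so that the difference of 0.69 ± 0.39 (adjusted p = 0.202) was 0.07 in experiment 1 and 1.32 in experiment 2. The 95% interval of this difference ran between -0.20 and 1.58. At 94305_at the difference was 0.54 ± 0.37 (adjusted p = 0.281).

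Collagen III, the homotrimer of fine reticular fibres, is encoded by Col3a1 and was read by 3 probe sets. At 161984_f_at tips averaged 10217 ± 3081 and lung 4543 ± 399 (SD, n = 2 RNA samples), a difference of 1.12 ± 0.32 (limma adjusted p = 0.0304) although 1 tip array, at 6225, lay under the highest lung array, at 6299. That call was lost without the tip RNA of experiment 1 and without either lung RNA. At 98331_at tips averaged 17522 ± 836 and lung 15043 ± 6319, with a difference of 0.28 ± 0.36, and at 102990_at the difference was 0.00 ± 0.34, with adjusted p of 0.577 and 0.996. The 3 readings of Col3a1 thus gave 1 call in favour of tips and 2 values whose groups overlapped.

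Collagen V is a minor component of type I fibrils that sets their diameter, and its chains gave the largest decreases among the fibrillar group. Col5a2 at 92567_at read 9312, 7029, 11941 and 8844 in tips, against 33251, 37134, 38198 and 41936 in lung. All tip arrays lay far below all lung arrays, the difference was -2.02 ± 0.32 (limma adjusted p = 0.00325), and the experiments gave -2.10 and -1.95. The neighbour of Col5a2 on chromosome 1 in the RefSeq table of GRCm38.p6 is Col3a1, whose readings were between 0.00 and 1.12.

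Col5a1 was called in both directions. Probe set 93472_at read 7624, 7300, 5415 and 6908 in tips, against 15996, 16103, 12534 and 13033 in lung, a difference of -1.07 ± 0.30 (limma adjusted p = 0.0302). Probe set 101080_at read 2998, 2738, 4191 and 3351 in tips, against 1903, 1431, 1681 and 1382 in lung, a difference of 0.98 ± 0.32 (adjusted p = 0.0478). Neither reading showed any overlap of the groups, so the direction of Col5a1 depends on the probe set. The decrease at 93472_at was lost without either lung RNA, and the increase at 101080_at also without the tip RNA of experiment 2.

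**Figure D2:**
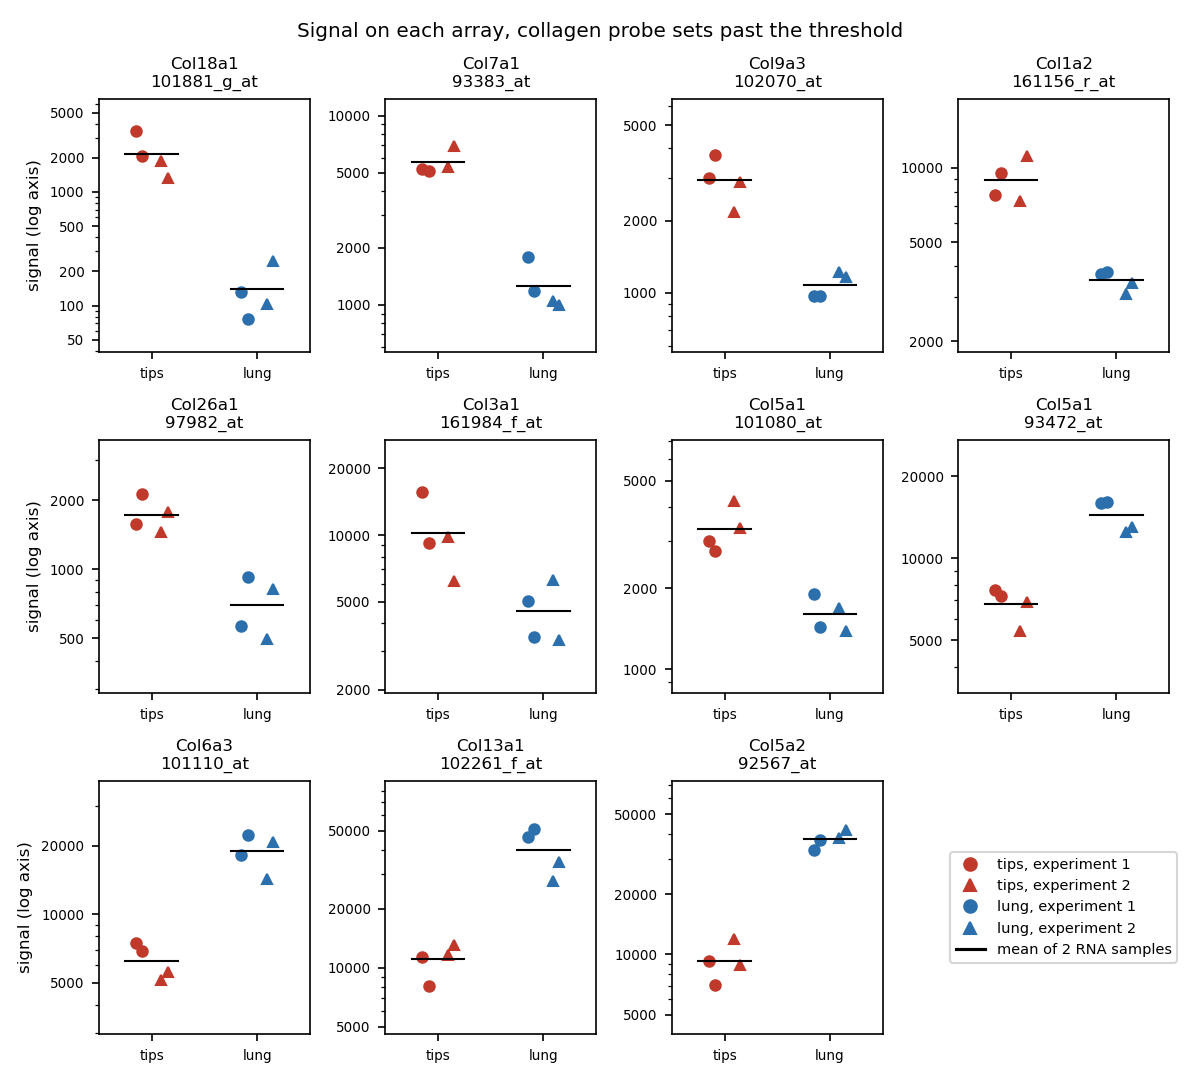
The signal of each of the 8 arrays is shown on a log axis for the 11 collagen probe sets past the threshold, with tips at the left and lung at the right of each panel, experiments by symbol and a line at the mean of the 2 RNA samples. Only Col3a1 at 161984_f_at shows an overlap of the groups, between a tip array at 6225 and a lung array at 6299.

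Of the basement membrane chains, 2 of 5 were tested, Col4a1 and Col4a2. Neither passed the threshold of limma, while both had an unadjusted p under 0.05. At that level 1898 of all 7453 probe sets were higher and 1353 lower. The genes Col4a1 and Col4a2 lie head to head and are read in opposite directions. The promoter windows of both genes from RefSeq (GRCm38.p6), each with 250 bases before and 50 from the start of the gene, are shown because the windows overlap. Capitals mark the 78 bases that the windows share, chr8:11312777-11312854, which read as the reverse complement of each other.
Col4a1, chr8:11312777-11313076, minus strand: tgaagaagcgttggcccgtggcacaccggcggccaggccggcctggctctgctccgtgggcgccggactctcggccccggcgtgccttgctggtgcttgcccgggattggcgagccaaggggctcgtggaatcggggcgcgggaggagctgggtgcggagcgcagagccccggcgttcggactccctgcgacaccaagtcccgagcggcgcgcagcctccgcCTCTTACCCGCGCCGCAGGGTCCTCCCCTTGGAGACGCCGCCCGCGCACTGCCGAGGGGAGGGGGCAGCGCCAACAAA
Col4a2, chr8:11312555-11312854, plus strand: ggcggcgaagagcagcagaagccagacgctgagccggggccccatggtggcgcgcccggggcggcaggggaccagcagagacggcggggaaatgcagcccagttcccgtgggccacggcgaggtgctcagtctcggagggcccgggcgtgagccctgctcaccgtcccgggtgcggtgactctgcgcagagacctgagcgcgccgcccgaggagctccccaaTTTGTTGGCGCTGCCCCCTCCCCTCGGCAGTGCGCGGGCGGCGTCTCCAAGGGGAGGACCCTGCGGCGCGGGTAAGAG
The annotated start sites are 21 bases apart. The letters GGGCGG, on either strand, occur inside the shared part, and CCAAT occurs in both windows but not wholly inside it. The shares that follow do not cover the genes of every chromosome. Among the 22 collagen genes with a promoter entry, GGGCGG was present in 54.5%, against 38.2% of 27025 genes. CCAAT was present in 40.9% against 41.1%, and TATAAA in 22.7% against 15.7%. These motifs do not overlap in their letters, and a match is only a match of letters.

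Col4a1, at 101093_at, read 194214, 191751, 199458 and 150208 in tips, against 80149, 77563, 94455 and 77531 in lung. Every tip array was well above every lung array, and the difference was 1.15 ± 0.46 (limma adjusted p = 0.0887). Col4a2, at 101039_at, read 26129, 24907, 17327 and 16229 in tips, against 10977, 13960, 6506 and 8095 in lung. The groups did not overlap here either, and the difference of 1.11 ± 0.37 had an adjusted p of 0.0514, or 0.0139 with the experiment as a block. The experiments gave 1.29 and 1.01 for Col4a1 and 1.03 and 1.19 for Col4a2. Of the other scalings, 2 moved the genes unequally, Col4a1 to 1.02 and Col4a2 to 1.74 with quantile normalization and to 2.22 and 1.81 with cyclic loess. Median centring lowered both, to 0.61 and 0.57. Under 17 other settings of the analysis, Col4a1 passed the threshold in 4 and Col4a2 in 6.

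The other chains of collagen IV, Col4a3, Col4a4 and Col4a5, build the networks known from the glomerulus and the alveolus, and their probe sets did not pass the filter. Col4a3 was under background on all 8 arrays. Col4a4 was above background on 1 tip array, at 932, and on 0 lung arrays, and Col4a5 on 0 tip arrays and 2 lung arrays. No direction is given for these 3 chains.

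Collagen VI is assembled from the products of Col6a1, Col6a2 and Col6a3, whose 4 probe sets were all tested. Of these, 0 were higher and 1 was lower, against 14.5% and 13.7% of all probe sets. Col6a3, at 101110_at, read 7448, 6906, 5135 and 5573 in tips, against 18210, 22400, 14301 and 20687 in lung. The tip arrays all lay below the lung arrays, and the difference was -1.57 ± 0.31 (limma adjusted p = 0.00755). That call was lost without the lung RNA of experiment 1, with quantile normalization (-1.03) and with cyclic loess (-0.94). Col6a1 gave positive values at both probe sets, 0.52 ± 0.36 at 95493_at and 0.76 ± 0.32 at 162459_f_at, with adjusted p of 0.288 and 0.0973. At the second of these, tips read 5959, 4659, 5169 and 3469 and lung 3278, 3199, 2334 and 2231, with no overlap. Col6a2, which lies next to Col6a1 on chromosome 10, was dim: tips read 302, 191, 1360 and 473, only 1 of them above background, and lung 654, 1074, 600 and 854, all 4 above it. Its difference was -0.59 ± 0.53 (adjusted p = 0.409).

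Within each experiment the values of Col6a3 and Col6a1 had opposite signs, except that with median centring Col6a1 at 95493_at gave -0.018 over both. In experiment 1 Col6a3 gave -1.47 and Col6a1 0.35 and 0.68, and in experiment 2 Col6a3 gave -1.66 and Col6a1 0.70 and 0.85. With 2 RNA samples per group an exact permutation test of such a contrast cannot go below a two-sided p of 0.333, and it was not tested.

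Of the cartilage collagens, 4 of 8 probe sets passed the filter. Of these, 1 was higher in tips and 0 were lower, against 14.5% and 13.7% of all probe sets. At an unadjusted p under 0.05 in limma, 2 were higher and 0 lower, where all 7453 probe sets gave 1898 and 1353. The 4 differences were all above 0, with a median of 0.84 against 0.35 for all probe sets, but that of Col11a1 was below 0 with quantile normalization, median centring and cyclic loess. Col11a1 passed the filter only through its tip signal, which favours a value above 0, so its sign is no support for a difference. The chain past the threshold was Col9a3 of collagen IX, a fibril-associated type that sits on the surface of other fibrils. At 102070_at it read 3003, 3761, 2178 and 2912 in tips, against 972, 974, 1225 and 1161 in lung. All tip arrays were higher, the difference was 1.32 ± 0.34 (limma adjusted p = 0.0212), and it was lost without either lung RNA. The second probe set of Col9a3 did not pass the filter and was above background on 1 tip array and 0 lung arrays.

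Col9a1 and Col9a2, the partner chains, gave 1.11 ± 0.41 and 0.58 ± 0.35. Col9a1 read 2966, 3448, 1354 and 2601 in tips, against 1560, 1274, 363 and 1573 in lung, an overlap of 1 tip array with lung. Its adjusted p was 0.0679, or 0.0333 with the block. Col9a2 averaged 2645 ± 798 in tips and 1690 ± 316 in lung, with an adjusted p of 0.228. Col2a1, the fibril chain of cartilage, was above background on 2 tip arrays and 1 lung array, and Col10a1, of hypertrophic cartilage, on 1 and 1. Col11a2 was above background on 2 tip arrays and 0 lung arrays, and Col11a1, which was tested, gave 0.34 ± 0.48.

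Markers of cartilage cells were dim in both tissues. Of 8 listed genes 5 had a probe set, and the sum of their signals lay between 1707 and 4906 on tip arrays and between 1105 and 1894 on lung arrays. Matn1 and Matn3 were under background on all 8 arrays, Hapln1 on all 4 tip arrays, and Acan was above background on 1 tip array and 1 lung array. Only Chad passed the filter, with a difference of 0.62 (adjusted p = 0.306). The part of cartilage cells in the collagen IX values was not tested.

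Among the remaining chains, 13 of 17 probe sets were tested. Of these, 3 were higher and 1 lower, against 14.5% and 13.7% of all probe sets. Col7a1, which forms the anchoring fibrils that tie epithelial basement membrane to the stroma beneath, read 5205, 5100, 5377 and 6946 in tips, against 1796, 1182, 1044 and 997 in lung at 93383_at. Every tip array was far above every lung array, the difference was 2.07 ± 0.32 (limma adjusted p = 0.00320), and the experiments gave 1.72 and 2.42. Markers of airway epithelium were also brighter in tips. The sum of the 3 with a probe set lay between 30571 and 82886 on tip arrays and between 13400 and 23192 on lung arrays. Most of that sum was Scgb1a1, with means of 53091 in tips and 17323 in lung. Scgb1a1 and Foxj1 differed by 1.49 and 1.68 (limma adjusted p = 0.0479 and 0.0204). Krt5, of basal cells, was under background on all 4 tip arrays. For alveolar epithelium the sum of 3 markers lay between 98564.5 and 113786 on tip arrays and between 22177 and 37445 on lung arrays. Most of it was Sftpc, with means of 102537 in tips and 27130 in lung, while Sftpb did not pass. The part of airway or alveolar epithelium in the Col7a1 value was not tested.

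Col18a1, of the multiplexin family and found in vascular and epithelial basement membranes, had 5 probe sets. At 101881_g_at tips read 3407, 2067, 1885 and 1331, against 132, 75.7, 104 and 247 in lung, where every array was under background. Set against background on the lung arrays, tips were at least 3.90-fold higher. This probe set passed the filter only through its tip signal, so that its call (limma adjusted p = 0.00300) is no support for a difference of Col18a1, and the call was lost with a common floor at 1244. At 99638_at the difference was -0.23 ± 0.39, with -0.88 in experiment 1 and 0.42 in experiment 2, and tips averaged 2646 ± 1244 and lung 2833 ± 391. At 162483_f_at and 101880_at it was 1.04 and 0.89, not past the threshold. These readings too passed the filter only through tips, so their signs are no support for a difference. Probe set 101882_s_at was under background on all 8 arrays.

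Col13a1 encodes a transmembrane collagen of cell adhesion sites. At 102261_f_at it read 11382, 8084, 11655 and 13055 in tips, against 46224, 51120, 27865 and 34817 in lung, and all tip arrays lay below all lung arrays. The difference was -1.82 ± 0.35 (limma adjusted p = 0.00712). That call was lost without the lung RNA of experiment 1 and with quantile normalization (-1.08). The other probe set of Col13a1, 102262_r_at, pointed the other way at 0.59 ± 0.32 (adjusted p = 0.186), again with no overlap, since tips read 2150 at the lowest and lung 1882 at the highest.

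Col26a1, a little studied chain, read 1573, 2131, 1454 and 1776 in tips, against 565, 922, 498 and 817 in lung at 97982_at. The difference of 1.17 ± 0.36 (limma adjusted p = 0.0416) was lost without either lung RNA. The fibril-associated chains Col12a1, Col14a1 and Col19a1 did not pass. Col19a1 gave 1.16 ± 0.46 (adjusted p = 0.0876) with tips between 625 and 1415 and lung between 205 and 539, Col14a1 gave 0.04 ± 0.37, and the probe sets of Col12a1 gave -0.15 and 1.04. Col15a1, the other multiplexin, gave 0.31 ± 0.43.

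The chains Col8a1, Col17a1 and Col22a1 did not pass the filter. Col8a1, of a network collagen of vessel walls, was above background on 1 tip array, at 1435, and on 1 lung array, at 328. Col17a1, of hemidesmosomes, was above background on 0 tip arrays and 1 lung array, and Col22a1 was under background on all 8.

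Probe sets of the same gene differed in how well they matched. Of the 8 genes with more than 1 tested probe set, Col1a2, Col1a1 and Col6a1 were closest, with readings 0.09, 0.15 and 0.24 apart on the log2 scale. The readings of Col3a1 and Col12a1 were 1.11 and 1.19 apart, and those of Col5a1 and Col13a1 were 2.05 and 2.42 apart. For Col18a1 no gap is given, since 1 of its readings has only a lower bound. Of the 44 probe sets, 10 have names with a suffix letter such as f, r, g, s or i, which marks probes that other transcripts can share or that were chosen under relaxed rules. Of the 11 calls, 4 were on such probe sets, those of Col1a2, Col3a1, Col13a1 and Col18a1.

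**Figure D3:**
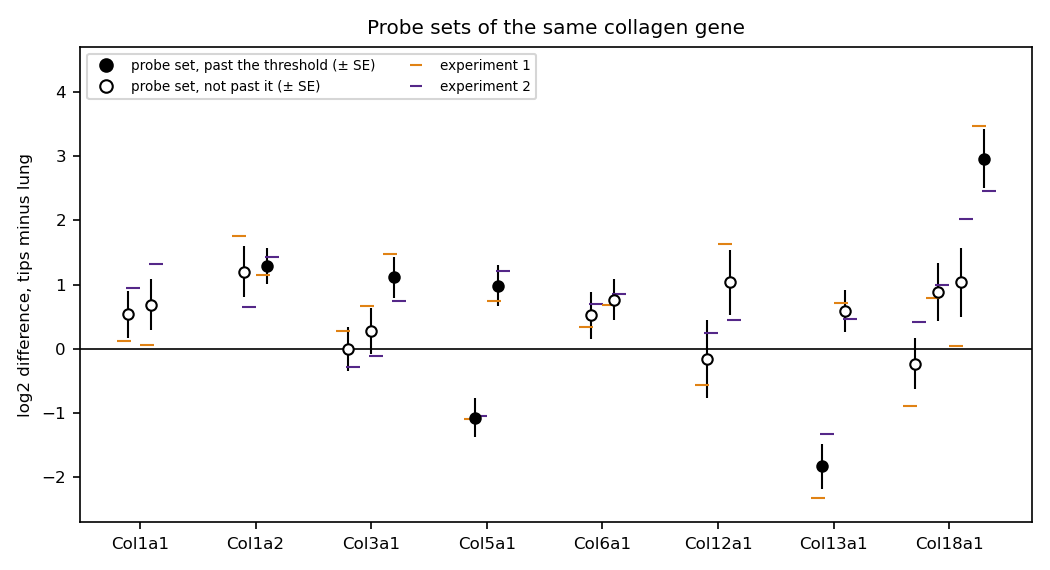
The vertical axis is the log2 difference of tips minus lung for each tested probe set of the 8 genes with more than 1, with its standard error and, as short bars, the value in each experiment. The probe sets of Col5a1, at -1.07 and 0.98, and of Col13a1, at -1.82 and 0.59, lie on opposite sides of 0.

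The scaling between arrays moved the collagen values, and not all in the direction of the median of all genes. The median of all probe sets was 0.35 as scaled here, 0.03 with quantile normalization, -0.19 with median centring and 0.05 with cyclic loess. Relative to the median of 0.35, Col7a1 differed by 1.72, Col4a1 by 0.80, Col4a2 by 0.76 and Col5a2 by -2.37. With cyclic loess, under which that median is lower than as scaled here, Col5a2 gave -1.26 and Col4a1 2.22. The calls of Col7a1 and Col5a2 held under all of these scalings. Leaving aside Col18a1, whose lung signal is under background, each of the other 8 calls failed under at least 1. Col4a2 and Col1a2 at 101130_at, which did not pass as scaled here, passed with quantile normalization at 1.74 and 1.61 and with cyclic loess at 1.81 and 2.13. So did Col1a1 at 103709_at, at 1.32 and 1.34, and Col4a1 passed under cyclic loess alone of these scalings. The 95th percentile of signals lay between 6218 and 6845 on tip arrays and between 9009 and 9243 on lung arrays. The median signal was higher on every tip array than on every lung array. The 4 lower calls were on bright probe sets, between percentiles 97.0 and 99.2 of the lung signals. Col4a1, Col1a2 at 101130_at and Col3a1 at 98331_at, at percentiles 99.8, 98.8 and 97.1, gave values above 0. The part of signal spread in the lower calls was not tested.

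**Figure D4:**
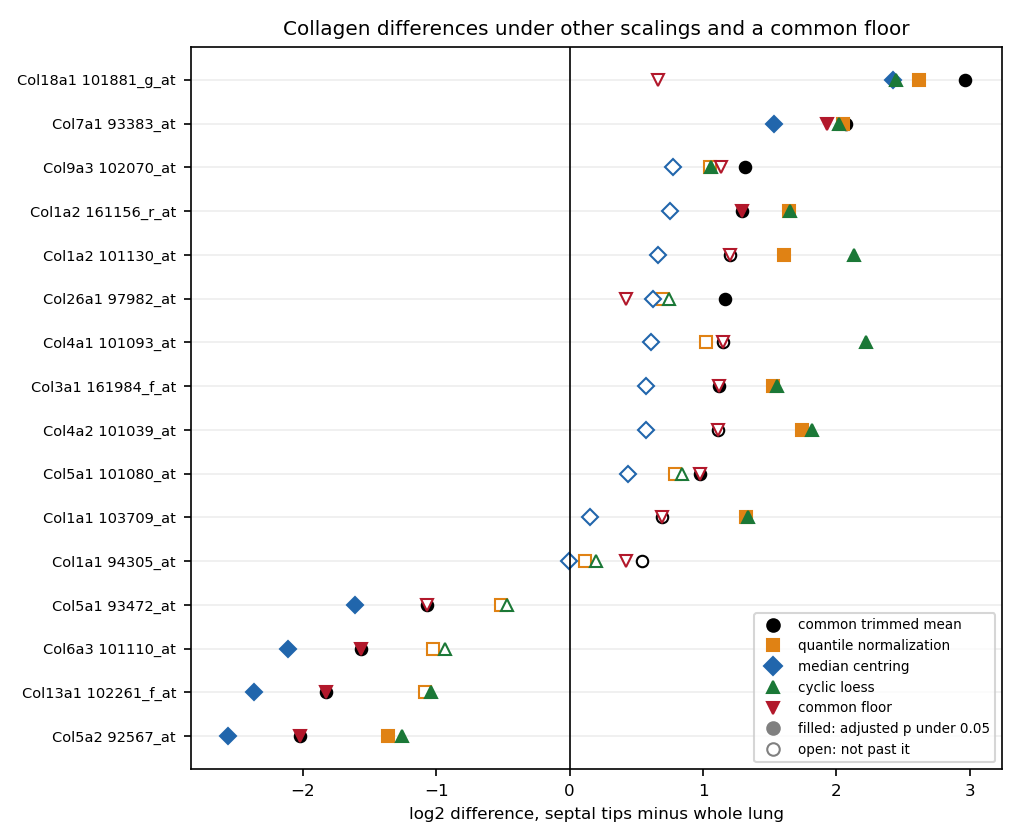
The horizontal axis is the log2 difference of tips minus lung for the 11 collagen probe sets past the threshold and 5 more of Col1a1, Col1a2, Col4a1 and Col4a2, under the common trimmed mean, under 3 other scalings and with a common floor at 1244, filled where the adjusted p was under 0.05. Only Col7a1 and Col5a2 are filled under all 5, and Col18a1 is open at 0.66 with the floor.

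Genes that make and process collagen were counted beside the chains. Of 30 listed genes 17 had a probe set and 16 were tested, and on the brightest probe set of each 4 were higher in tips and 0 lower, with a median of 0.54 (4 and 0 of 16 are to be read against 14.5% and 13.7% of all probe sets). At an unadjusted p under 0.05 in limma there were 6 higher and 1 lower, where all 7453 probe sets gave 1898 and 1353. Those past the threshold were Bmp1, the protease that removes the C-propeptide of fibrillar procollagens, at 2.80 ± 0.47, its enhancer Pcolce at 1.04 ± 0.32, the prolyl isomerase gene Ppib at 2.07 ± 0.36, and P3h3, of the prolyl 3-hydroxylase family, at least 7.14-fold higher with lung under background on all 4 arrays. P3h3 passed the filter only through its tip signal and is no support for the count. The collagen chaperone gene Serpinh1 gave 1.12 ± 0.56 (adjusted p = 0.154). Lox, also on the list, gave -1.67 ± 0.57 at its brighter probe set (limma adjusted p = 0.0542). That probe set was above background on 1 tip array and 4 lung arrays. The other probe set of Lox gave 0.71 ± 0.39 (adjusted p = 0.187). Of 10 listed collagen receptors 5 were tested, and 2 were higher and 0 lower, against 14.5% and 13.7% of all probe sets. Ddr1 and Ddr2, the discoidin domain receptor kinases, were higher by 1.33 ± 0.43 and 1.51 ± 0.35 (limma adjusted p = 0.0485 and 0.0147). Itgb1 at its brighter probe set, Itga2 and Mrc2 did not pass, at 0.53, -0.08 and 0.22.

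Markers of the cells that make collagen did not move one way. Their counts past the threshold are to be read against the 14.5% higher and 13.7% lower of all probe sets. Those at an unadjusted p under 0.05 in limma are to be read against 1898 higher and 1353 lower of 7453. Of 6 fibroblast genes, 0 were higher and 1, Meox2, was lower, and at an unadjusted p under 0.05 in limma 0 were higher and 2 lower. Their summed signal lay between 21267 and 32036 on tip arrays and between 40049 and 49090 on lung arrays, but without Meox2 between 20973 and 28731 on tip arrays and between 25411 and 30684 on lung arrays, which overlap. Of 6 smooth muscle genes 4 were higher and 0 lower, with sums between 27988 and 43871 on tip arrays and between 14987 and 39892 on lung arrays. Of 5 endothelial genes 2 were higher and 1 lower, with sums between 38157 and 62279 on tip arrays and between 27190 and 32192 on lung arrays. Without Tie1 the sums overlapped, between 22382 and 26472 on tip arrays and between 19609 and 24552 on lung arrays, and Tek differed by -1.72. Each of the other marker lists, for alveolar epithelium, mesothelium, macrophages and heart muscle of pulmonary veins, had 3 genes tested at most, and of these only Sftpc passed, at 1.95. The part of these cell types in the collagen values was not tested.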

How the data were processed

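The authors deposited MAS5 intensities, per the submitters' processing notes, 1 linear signal for each probe set, with arrays that the values show were already brought to a like trimmed mean. Per the labels' protocols, the extract passed through RNA amplification before biotin labelling. That step is written for the tip arrays and 1 lung array alone, while the series' design text states it for both tissues.

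From these signals, each array was rescaled to a common trimmed mean (2% left out at each end), an offset of 10% of it was added before taking log2. Of the probe sets, 66 are controls and were dropped, together with any whose mean log2 value fell below the 40th percentile. Both arrays of an RNA were averaged. The comparison used limma 3.58.1 under R 4.3.3 (lmFit, eBayes with an intensity trend). Benjamini-Hochberg adjustment ran over 7453 probe sets, and there were 2 residual degrees of freedom. The fit was also tested on simulated data. Far fewer probe sets were changed there than were called here, so that test gives no error rate for these calls. Precision is limited by the 2 RNA samples per group, and nothing says which mice each pool holds. A limit written as "at least" uses, per array, the higher of background and the probe set's own signal. The design text has tips and lung of an experiment handled in parallel, so the experiment number pairs them, and their deviations correlated at 0.0452. Every chain with a call and the chains of the main trimers of lung and cartilage are named, and each other chain at least once. The members and lists were chosen with earlier results of these data known.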

Additional observations from a re-analysis of the deposited data

Results flagged for a closer look

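An array was taken as apart by a limit that 4 independent arrays pass about 1 time in 20. In 8 of the 66 sets of 4 arrays examined, for 33 collagen probe sets in each group, 1 array lay apart from the other 3. In tips these were Col4a1, with 150208 on array 2 of experiment 2 and between 191751 and 199458 on the others, Col3a1 at 102990_at, with 2757 on array 1 of experiment 1 and between 1432 and 1602 on the others, and Col7a1, with 6946 on array 2 of experiment 2 and between 5100 and 5377 on the others. In lung these were Col4a1, with 94455 on array 1 of experiment 2 and between 77531 and 80149 on the others, and Col9a1, with 363 on the same array and between 1274 and 1573 on the others. Array 2 of experiment 2 of lung was lowest for Col18a1 at 162483_f_at, with 71.2 against 500.4 to 602, and for Col14a1, with 957 against 1393 to 1475. Array 1 of experiment 1 of lung was lowest for Col12a1 at 92313_at, with 146 against 595 to 671. All of these are spreads between arrays of a group. Its 4 arrays come from 2 RNA samples and are not independent, so the rate of 1 in 20 does not apply to them.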

How the results depend on the processing

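Col7a1 and Col5a2 passed in the same direction under all 17 alternatives, Col18a1 at 101881_g_at, which had passed the filter only through tips, under 15 of 16, Col13a1 at 102261_f_at under 15 of 17, Col6a3 and Col1a2 at 161156_r_at under 14, Col9a3 under 11, Col3a1 at 161984_f_at and Col5a1 at 93472_at under 10, Col26a1 under 8 and Col5a1 at 101080_at under 5. The 7 collagen probe sets higher in tips became 2 with median centring, 2 with the common floor at 1244 and 3 on array 1 of each RNA alone, and ranged between 2 and 11 with 1 RNA left out. The 4 lower became 1 with quantile normalization and 2 with cyclic loess, and ranged between 1 and 5. Over all probe sets, 1084 higher became 608 with quantile normalization (1020 lower), 271 with median centring (1512 lower), 806 with cyclic loess (1156 lower), 255 with the floor, 511 on array 1 alone and 654 on array 2 alone, and ranged between 72 and 1866 with 1 RNA left out. The 1022 lower became 571 with the floor and ranged between 277 and 1458. With the experiment as a block, 10 collagen probe sets were higher and 4 lower, and Col4a2, Col1a2 at 101130_at and Col9a1 were added; it changed no other call of a collagen probe set. With a lower floor at 792, 6 were higher and 4 lower, and without array 2 of the tip RNA of experiment 1, 5 and 4, both chosen after seeing the data, as was the brightest probe set of each gene, with 3 and 4. The sign of 10 probe sets that had not passed changed at least once, in 32 of 547 combinations of probe set and setting, and none passed with the changed sign. For Col11a1 it did so at -0.17, -0.20 and -0.22 with quantile normalization, median centring and cyclic loess and at -0.067 on array 2 alone. In the same order Col3a1 at 102990_at gave -0.30, -0.54, -0.26 and -0.074, Col14a1 -0.36, -0.50, -0.32 and -0.028, and Col15a1 -0.13, -0.23, -0.16 and -0.16. With median centring Col1a1 at 94305_at gave -0.0021, Col6a1 at 95493_at -0.018 and Col3a1 at 98331_at -0.26. Col6a2 gave 0.029 with the floor and 0.089 on array 1 alone, and Col18a1 at 99638_at gave 0.12 on array 2 alone. With 1 RNA left out, the values ran between -0.24 and 0.25 for Col3a1 at 102990_at, -0.16 and 0.72 for Col3a1 at 98331_at, -0.89 and 0.58 for Col12a1 at 92313_at, -1.24 and 0.064 for Col6a2, -0.20 and 0.28 for Col14a1, -0.060 and 0.68 for Col15a1 and -0.75 and 0.29 for Col18a1 at 99638_at. The cause of these changes was not tested. Dim chains are limited by background, which 24 of the 44 probe sets exceeded on all 4 tip arrays and 24 on all 4 lung arrays.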
